A study of Mus musculus with 12 samples.

Results

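The 8 genes described here, Bpifa1, Bpifb1, Bpifb3, Bpifb4, Bpifb5, Bpifb6, Bpifb9a and Bpifb9b, belong to the BPIF family, many of whose proteins are secreted. They were taken by symbol from the 23358 rows of the deposited count table. All 8 were found. They were selected on their counts in these 12 libraries, since several were high in some libraries and at or near 0 in others, so those levels, and the counts of calls made from them, are given as a description and support nothing. Of the 8, 6 passed the filter on low counts that the gene-wide test used, and Bpifb9a and Bpifb9b did not. The working name of the set, airway secretory family, was checked against markers of airway secretory cells.

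BPIF proteins share the lipid-binding fold of the bactericidal/permeability-increasing protein and the lipopolysaccharide-binding protein. Many of them are made by the lining and glands of the nose, mouth and upper airway and are released into the mucus. Bpifa1, also known as SPLUNC1 or PLUNC, is an abundant product of nasal and upper airway epithelium with surfactant and antimicrobial activity, and it limits the epithelial sodium channel. Bpifb1, or LPLUNC1, is a product of goblet cells and submucosal glands. Bpifb3 and Bpifb4 are relatives of proteins first described in rat olfactory mucosa, and the Bpifb9 genes encode vomeromodulin, a product of rodent nasal glands. Bpifb5 and Bpifb6 are less studied members of the same fold.

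The study sequenced mRNA from skull tissue of mice at postnatal day 3. Each piece held the frontal bone with the adjoining nasal bone and 2 sutures, the coronal and the frontonasal, so the dissection bordered the nasal cavity. The 4 groups of 3 samples were wild type mice on C57BL/6, heterozygous Fgfr2 C342Y mice on C57BL/6, wild type mice on BALB/c and heterozygous Fgfr2 C342Y mice on BALB/c. C342Y is a Crouzon syndrome allele, and that condition closes skull sutures too early. All groups were digested with collagenase and trypsin before RNA extraction, and no other treatment is given. The labels do not say whether a sample was 1 animal or a pool, so p-values measure the spread between these samples. All C57BL/6 samples carry 1 flow cell name and all BALB/c samples another, so strain and flow cell cannot be told apart. Replicates are numbered as in the labels: 1 to 3 and 4 to 6 in C57BL/6 wild type and mutant, 13 to 15 and 16 to 18 in BALB/c wild type and mutant.

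The 8 genes lie in 1 cluster of 13 BPIF genes on chromosome 2 (mm10 coordinates 153875045 to 154320642, 445.6 kb), all on the plus strand. Their order is Bpifb2, Bpifb6, Bpifb3, Bpifb4, Bpifa6, Bpifa2, Bpifa3, Bpifa1, Bpifa5, Bpifb1, Bpifb5, Bpifb9a and Bpifb9b. Bpifa1 spans 154142880 to 154149217. Bpifb5, Bpifb9a and Bpifb9b are neighbours at the far end, at 154223742 to 154240902, 154257879 to 154271243 and 154307244 to 154320642. Bpifb9a and Bpifb9b are near-identical copies: 2051 of the 2065 aligned bases of their GENCODE transcripts are the same (99.3%). Of the 50-base words of the Bpifb9a transcripts 63.4% also occur in another gene's transcripts, and of those of Bpifb9b 71.4%, while the other 6 members share 0.0% of theirs. How reads that match both copies were assigned is not given in the sources used here, so the split between Bpifb9a and Bpifb9b is uncertain and their sum is the safer quantity.

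The likeness of the pair reaches upstream of the genes. Both 250-base windows before the start sites are shown because both genes were high in the same single library. They come from RefSeq (GRCm38.p6, plus strand, 5′ to 3′), at chr2:154257629-154257878 for Bpifb9a and chr2:154306994-154307243 for Bpifb9b. Capitals mark the bases that are not identical in the alignment of the pair.
Bpifb9a: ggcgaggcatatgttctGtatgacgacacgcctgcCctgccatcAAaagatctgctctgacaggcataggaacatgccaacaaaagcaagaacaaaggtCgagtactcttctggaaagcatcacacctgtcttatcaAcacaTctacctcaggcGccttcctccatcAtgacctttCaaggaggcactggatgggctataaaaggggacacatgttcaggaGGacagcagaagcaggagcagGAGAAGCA
Bpifb9b: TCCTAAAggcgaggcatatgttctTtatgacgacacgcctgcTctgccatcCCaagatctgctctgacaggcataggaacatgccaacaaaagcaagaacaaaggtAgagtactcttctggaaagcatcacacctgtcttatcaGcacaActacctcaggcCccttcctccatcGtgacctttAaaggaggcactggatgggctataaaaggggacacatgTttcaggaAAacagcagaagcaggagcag
The 2 windows have 230 of 250 bases in common (92.0% of the window). All 8 members had a window in RefSeq, as did 8 of the 9 other genes of the wider family.

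The next most alike windows among the 13 genes of the cluster (78 pairs compared) were those of Bpifa1 and its neighbour Bpifa5, with 172 of 250 bases in common (68.8%), and no further pair passed 56.8%. This pair is shown because its 2 genes sat at opposite ends of the range of levels. The windows are chr2:154142630-154142879 for Bpifa1 and chr2:154162357-154162606 for Bpifa5 (RefSeq, GRCm38.p6, plus strand, 5′ to 3′). Capitals mark the letters TATAAA, the core of a TATA box.
Bpifa1: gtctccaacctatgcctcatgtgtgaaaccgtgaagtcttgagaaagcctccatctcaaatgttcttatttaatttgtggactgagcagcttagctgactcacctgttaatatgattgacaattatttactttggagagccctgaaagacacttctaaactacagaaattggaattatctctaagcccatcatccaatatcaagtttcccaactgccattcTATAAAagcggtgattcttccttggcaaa
Bpifa5: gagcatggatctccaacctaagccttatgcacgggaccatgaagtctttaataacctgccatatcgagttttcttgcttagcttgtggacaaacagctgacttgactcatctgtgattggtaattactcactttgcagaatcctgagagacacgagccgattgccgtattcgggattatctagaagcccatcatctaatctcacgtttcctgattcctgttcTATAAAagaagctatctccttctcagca
Searched on both strands, TATAAA was found in the windows of 3 of the 8 members, Bpifa1, Bpifb9a and Bpifb9b, and in that of Bpifa5. Of all 32851 RefSeq windows of this length, 12.4% hold it. The SOX-type letters ACAAAG were found in Bpifb1, Bpifb9a and Bpifb9b (16.5% of all windows), the AP-1-type letters TGANTCA in Bpifa1 and Bpifb3 (6.75%), CCAAT in Bpifa1 and Bpifb4 (33.8%) and the forkhead-type letters TGTTTAC in 0 members (3.17%). None of these strings of letters contains another, and a match is a description of letters only.

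Libraries held 27.2 to 46.5 M deposited counts. Every deposited count was even, as if each fragment added its 2 mates to the count, so 0 counts leave room for 3 read pairs, or 0.129 to 0.225 CPM (counts per 1000000 of the library's counts, scaled by TMM) depending on the library. Such limits take in counting error alone, as the reads carry no molecular identifiers and copies of 1 molecule can be counted more than once. Osteoblast genes were high throughout, with a summed level of 113552 to 262410.5 CPM over 10 genes. Fgfr2, the mutated gene, was detected in all 12 libraries. Its transcript was higher in C57BL/6 mutants by 0.54 on the log2 scale (SE 0.0999, edgeR quasi-likelihood adjusted p = 0.00405), and its level does not read the C342Y change itself. The labels give no sex, and the Y-linked gene Ddx3y measured 68.1 to 73.9 CPM in the 3 C57BL/6 wild type libraries, 87.2 in mutant replicate 6 and at most 0.226 in mutant replicates 4 and 5 of that strain. In BALB/c it had 0 counts in wild type replicates 13 and 14 and 76.6 CPM in replicate 15, 60.7 in mutant replicate 16 and at most 0.0984 in replicates 17 and 18. The part of sex in the results below was not tested.

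The BPIF genes split the 12 libraries sharply. Their summed level was 716 CPM in C57BL/6 wild type replicate 1, 117 in replicate 2, 135 in replicate 3 and 59.3 in C57BL/6 mutant replicate 4. In the other 8 libraries it was between 0.388 and 2.11 CPM. Those 8 are C57BL/6 mutant replicates 5 and 6 and all 6 BALB/c libraries, so 1 of the 3 C57BL/6 mutant samples stood with the wild type and the group averages of that genotype rest on it. The members followed 3 patterns: Bpifa1, Bpifb3, Bpifb4 and Bpifb6 were found in the 4 libraries, Bpifb5 and the Bpifb9 pair were high in 1 library, and Bpifb1 was low in all 12.

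**Figure D1:**
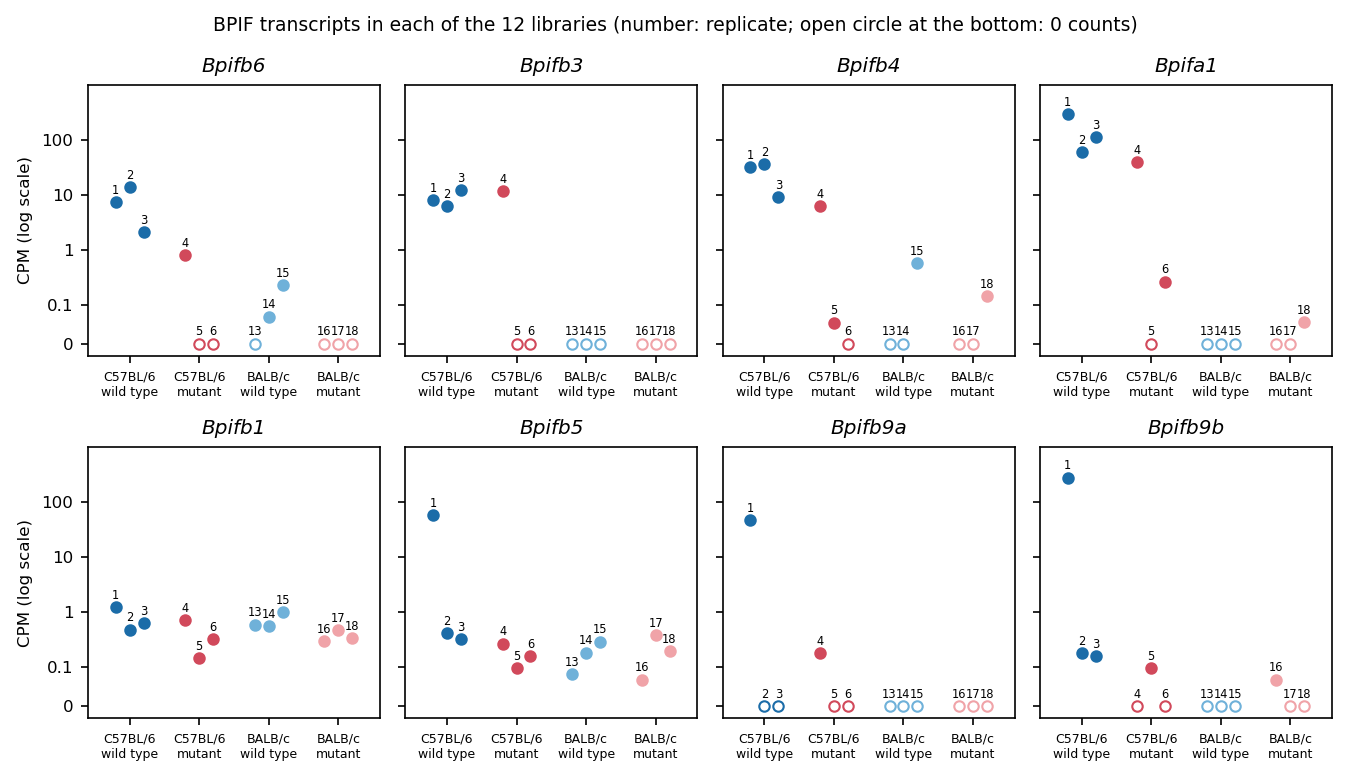
CPM of each of the 8 BPIF genes on a log scale, by group; each point is 1 library with its replicate number, and open circles at the bottom are libraries with 0 counts. In the panels of Bpifa1, Bpifb3, Bpifb4 and Bpifb6 the wild type replicates 1 to 3 and mutant replicate 4 of C57BL/6 stand above all others, in those of Bpifb5, Bpifb9a and Bpifb9b wild type replicate 1 stands alone, and Bpifb1 stays at or under 1.25 CPM.

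Bpifa1 was the leading member of the first pattern. It reached 287 CPM in C57BL/6 wild type replicate 1, 59.5 in replicate 2, 110.3 in replicate 3 and 39.4 in mutant replicate 4 (11036, 1976, 4116 and 1744 counts). Mutant replicate 5 had 0 counts and replicate 6 had 10, or 0.269 CPM. Of the BALB/c libraries, 5 had 0 counts and mutant replicate 18 had 2. All wild type C57BL/6 libraries thus lay above all mutant ones and above all BALB/c ones, with a wild type mean of 152 CPM ± 119 (SD, n = 3) and a mutant mean of 13.2 ± 22.7 (SD, n = 3). Against the floor of 0.225 CPM of the shallowest BALB/c wild type library, the lowest C57BL/6 wild type library was at least 263-fold higher. Per kilobase of coding length, which allows genes to be set side by side, Bpifa1 was the highest member in each of the 4 libraries, with 54.4%, 64.7%, 88.6% and 77.2% of the members' summed CPM per kb in wild type replicates 1, 2 and 3 and mutant replicate 4.

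Bpifb3 had the same 4 libraries but another order. Its level was 7.95 CPM in wild type replicate 1, 6.26 in replicate 2, 12.1 in replicate 3 and 11.7 in mutant replicate 4, and each of the other 8 libraries had 0 counts. Mutant replicate 4 lay inside the wild type range, so the 2 genotypes of C57BL/6 overlapped for this gene. The highest of the 4 libraries was 1.93 times the lowest, the narrowest range of the first pattern. The lowest C57BL/6 wild type library was at least 27-fold above the BALB/c wild type floor.

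Bpifb4 and Bpifb6, which flank Bpifb3 in the cluster, were highest in wild type replicate 2. Bpifb4 measured 32.2 CPM in wild type replicate 1, 36.1 in replicate 2, 9.06 in replicate 3 and 6.28 in mutant replicate 4. It was at 0.0485 CPM and 0 in mutant replicates 5 and 6, and in BALB/c it had 20 counts (0.586 CPM) in wild type replicate 15, 6 counts in mutant replicate 18 and 0 in the other 4. Bpifb6 measured 7.43, 13.7 and 2.09 CPM in wild type replicates 1 to 3 and 0.813 in mutant replicate 4. It had 0 counts in mutant replicates 5 and 6 and at most 0.234 CPM in BALB/c, where wild type replicate 15 was again the highest. The wild type C57BL/6 libraries lay above all mutant libraries for both genes, but wild type replicate 3 was closer to mutant replicate 4 than to replicate 2 in each.

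Bpifb5, Bpifb9a and Bpifb9b formed the second pattern. Bpifb9b had 10638 counts, or 276 CPM, in C57BL/6 wild type replicate 1 and at most 6 counts (0.181 CPM) in any other library. Bpifb9a had 1786 counts, or 46.4 CPM, in the same library, 8 counts in mutant replicate 4 and 0 in the other 10. Bpifb5 had 2220 counts, or 57.7 CPM, in that library and 2 to 18 counts in each of the other 11 (0.06 to 0.422 CPM). Wild type replicates 2 and 3 of C57BL/6, which had Bpifa1, had at most 0.422 CPM of any of the 3 genes. Their group means, such as 92.2 CPM ± 159 (SD, n = 3) for Bpifb9b, therefore describe 1 library.

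The 3 genes were also the leading genes of that library among all rows of the table. A row was counted, by a rule set after the values were seen, where it had at least 1 CPM in a library and at least 20 times the next highest library. In C57BL/6 wild type replicate 1, 4 of 23358 rows met it: Bpifb9b at 1529.8 times the next library, Bpifb9a at 257, Bpifb5 at 137 and Dmbt1, a secreted scavenger-receptor glycoprotein of mucosal glands, at 43.6 (4.68 CPM against 0.107). Wild type replicate 2 had 6 such rows, among them the keratins Krt4, Krt6a, Krt13 and Krt15, and no BPIF gene. Mutant replicate 6 had 1, BALB/c mutant replicate 16 had 3, and the other 8 libraries had 0.

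**Figure D2:**
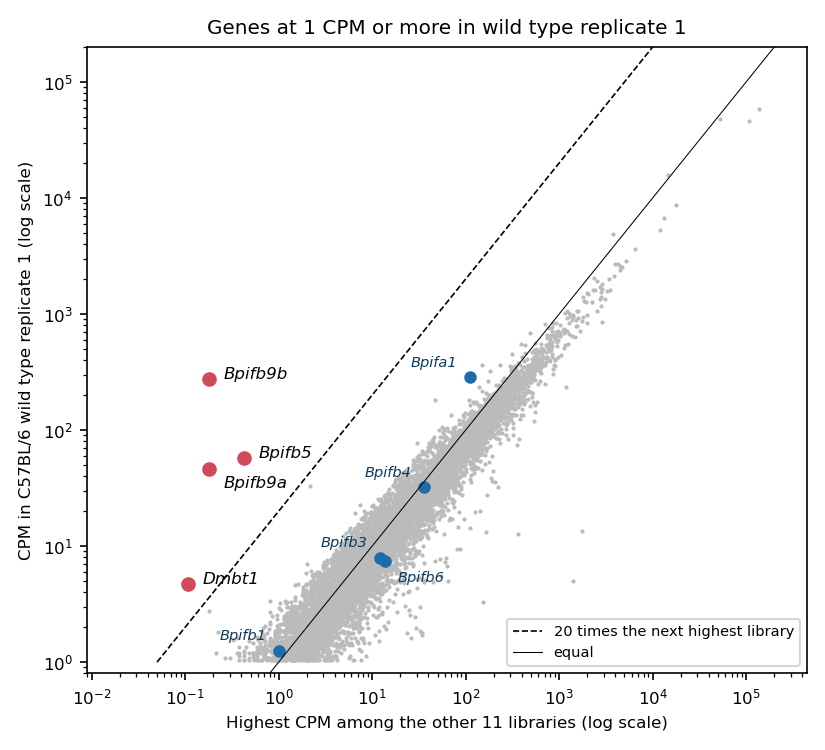
Each grey point is a gene with at least 1 CPM in C57BL/6 wild type replicate 1 (vertical axis, log scale), set against its highest CPM in the other 11 libraries (horizontal axis, log scale); the dashed line is 20 times the next library. Bpifb9b, Bpifb9a, Bpifb5 and Dmbt1 lie above the dashed line, and the other 5 BPIF genes lie near the line of equal levels.

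**Figure D3:**
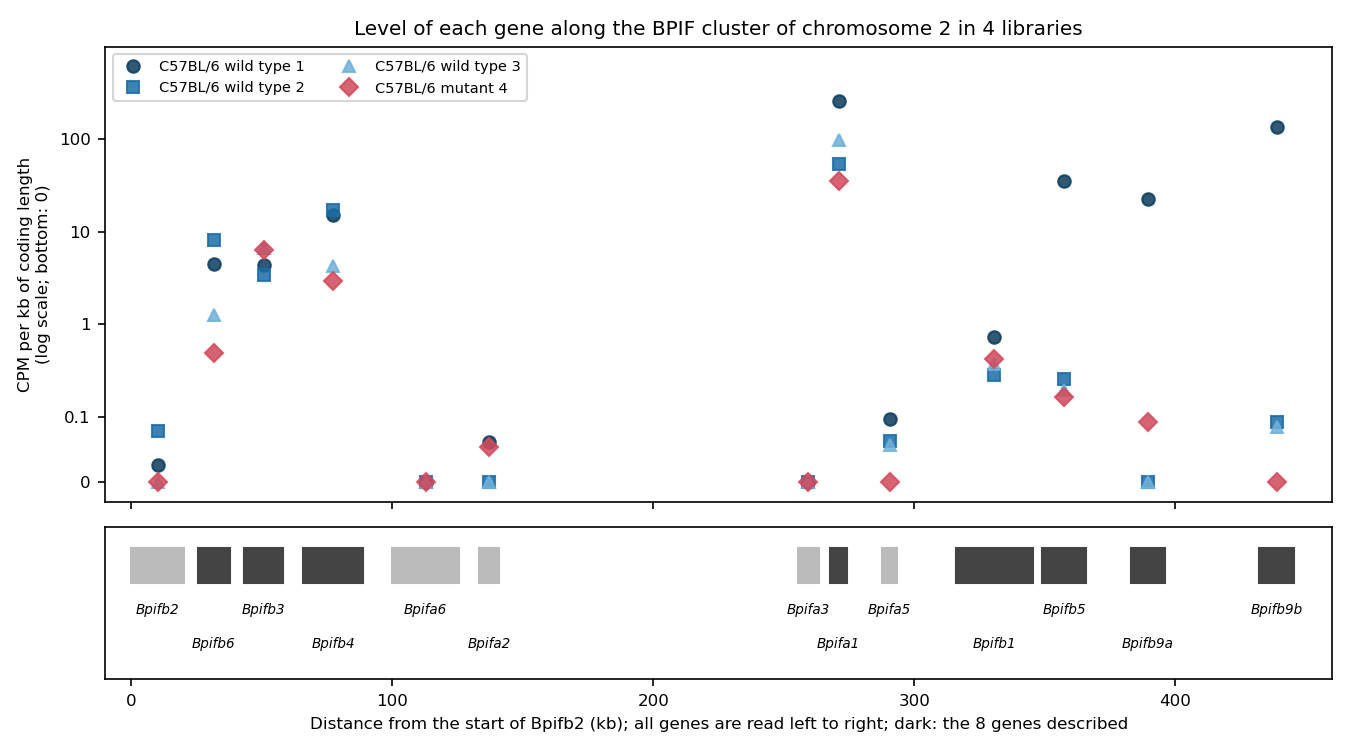
CPM per kb of coding length (log scale, 0 at the bottom) for the 13 genes of the BPIF cluster in the 4 libraries with BPIF transcripts, placed by distance from the start of Bpifb2 in kb; dark boxes are the 8 genes described. Bpifb3, Bpifb4 and Bpifa1 are at 2.97 CPM per kb or more in all 4 libraries, Bpifb6 runs from 8.20 in wild type replicate 2 to 0.488 in mutant replicate 4, and levels are near 0 at the 5 pale genes, and high over the last 3 genes in wild type replicate 1.

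Bpifb1, the gene between Bpifa5 and Bpifb5, made the third pattern. It had 6 to 48 counts in every library. The levels were 1.25, 0.482 and 0.643 CPM in C57BL/6 wild type, 0.723, 0.146 and 0.323 in C57BL/6 mutant, 0.601, 0.556 and 0.996 in BALB/c wild type, and 0.3, 0.474 and 0.344 in BALB/c mutant libraries. The genotypes overlapped in C57BL/6, as did the strains within each genotype, while in BALB/c all 3 wild type libraries lay above all 3 mutant ones. The values rest on 3 to 24 read pairs each.

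Relative to the summed level of general epithelial genes, the members differed among the 4 libraries. General epithelial genes (10 genes, among them Epcam, Cdh1, Krt8 and Krt18, which build the junctions and the keratin skeleton of simple epithelia) summed to 302, 173, 168 and 94.0 CPM in wild type replicates 1, 2 and 3 and mutant replicate 4, and to 5.87 to 11.2 CPM in the other 8 libraries. Per 100 CPM of these genes, Bpifa1 stood at 94.9, 34.3, 65.8 and 41.9 CPM in the same order, so mutant replicate 4 lay inside the wild type range. Bpifb3 stood at 2.63, 3.61, 7.22 and 12.4 and was highest on this scale in the mutant library. Bpifb4 stood at 10.7, 20.8, 5.40 and 6.68, again with the mutant inside the wild type range. Bpifb6 stood at 2.46, 7.88, 1.25 and 0.865, with the mutant lowest. Bpifb9b dropped from 91.5 in wild type replicate 1 to at most 0.104 in the other 3. With 1 mutant library holding these transcripts, the genotypes could not be compared on this scale.

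**Figure D4:**
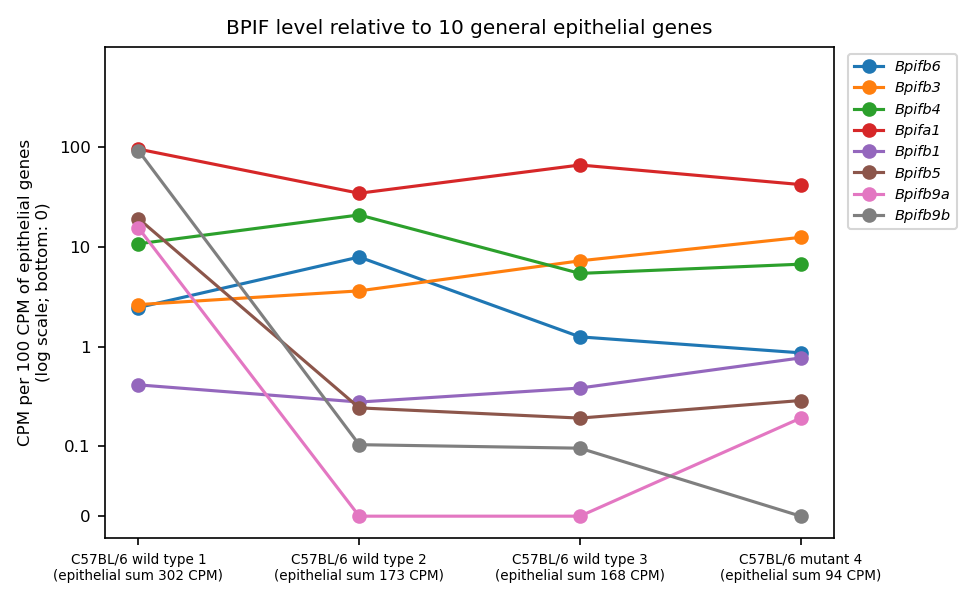
CPM of each BPIF gene per 100 CPM of 10 general epithelial genes (log scale, 0 at the bottom) in the 4 libraries with BPIF transcripts; the summed epithelial level is printed under each library and the lines join 1 gene's points. Bpifa1 stays between 34.3 and 94.9, Bpifb3 spans 2.63 to 12.4, and the lines of Bpifb5, Bpifb9a and Bpifb9b drop after wild type replicate 1.

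Markers of nasal tissue moved with the BPIF genes across libraries. The list for sustentacular cells and Bowman glands of the olfactory mucosa (9 genes) summed to 159 to 465 CPM in the 4 libraries and 20.5 to 49.6 in the other 8. Its most abundant gene, Gstm2, a glutathione transferase with a wide tissue range, did not follow the 4 libraries and made up most of the sum in the other 8. It measured 40.4, 28.8, 35.9 and 25.4 CPM in the 4, 19.5 and 19.9 in C57BL/6 mutant replicates 5 and 6, and 36.8 to 46.3 in BALB/c. The next genes did: Cyp2g1, an olfactory cytochrome P450, measured 71.9, 40.3, 41.9 and 29.9 CPM in the 4 libraries and at most 0.216 in the others. Sec14l3, a lipid-binding protein of this mucosa, measured 183, 89.1, 108 and 44.9 CPM and at most 0.162 in the others. The olfactory neuron list (10 genes) summed to 236 to 426 CPM against 83.1 to 145. Most of the sum in the other 8 was Adcy3, an adenylyl cyclase of olfactory cilia found in other cells too, at 71.2 to 133 CPM over the 12 libraries. Adcy3 was at 83.0 to 93.2 CPM in C57BL/6 wild type and higher, at 119 to 133, in the mutants of that strain. Of the 10 genes, 1 was called higher and 3 lower in C57BL/6 mutants than in wild type. All 10 were called lower in BALB/c than in C57BL/6 wild type (median -6.31), beside 25.6% of all genes tested. The Adcy3 call there was lost without C57BL/6 replicate 2 or BALB/c replicate 13 (-0.18 and -0.19, edgeR adjusted p = 0.0771 and 0.074). In C57BL/6 mutants 3 of the 9 sustentacular and gland genes and 5 of the 10 general epithelial genes were called lower than in wild type and 0 higher, where 12.6% of all genes tested were called lower. The medians of the 2 lists were -2.34 and -2.65 on the log2 scale, beside 0.0 over all genes tested. In BALB/c wild type 7 of 9 and 10 of 10 were called lower than in C57BL/6 wild type, where 25.6% of all genes tested were, and 1 of the 9, Gstm2, was called higher (0.37, SE 0.123, edgeR adjusted p = 0.0277). The Gstm2 call was lost with total counts (0.24, edgeR adjusted p = 0.234) and without C57BL/6 wild type replicate 2 or 3 or any 1 BALB/c wild type library (0.25 to 0.38, edgeR adjusted p = 0.0521 to 0.099). The ciliated cell list (10 of 15 genes in the table) summed to 25.7 to 53.9 CPM in the 4 libraries and 19.9 to 33.9 in the other 8, so the ranges overlapped. Of its 9 tested genes, 6 were called lower in C57BL/6 mutants than in wild type and 7 lower in BALB/c than in C57BL/6 wild type. The basal epithelial list (6 genes) summed to 40.7 to 249.9 CPM in the 4 and 21.4 to 49.6 in the 8, and 4 and 5 of the 6 were called lower in the same comparisons. Bone and blood cell markers also moved between these groups. The osteoblast list summed to 113552 to 196599 CPM in C57BL/6 wild type, lowest in replicate 1, and to 219125 to 262410.5 in the mutants, where 8 of its 10 genes were called higher and 0 lower (1835 of 16190 genes were called higher). The erythroid list (6 of 8 genes in the table) summed to 187 to 252 CPM in C57BL/6 wild type and 49.0 to 76.6 in the mutants, where 5 of the 6 were called lower and 0 higher. In BALB/c wild type these lists summed to 188197 to 210643 and to 201 to 317 CPM. The part of bone, blood and nasal mucosa in the differences between groups was not tested, and in bulk tissue fewer cells of a type and less RNA per cell cannot be told apart.

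The word airway in the set's working name was not borne out for club cells, whose defining markers were at 0. Several other secretory markers, some at low levels, were higher in the same 4 libraries as the BPIF genes. The list for club and goblet cells (14 of 15 genes in the table) summed to 39.9 to 147 CPM in the 4 libraries and 0.601 to 1.40 in the other 8. It was led by Cyp2f2, a cytochrome P450 of club cells and nasal epithelium (54.6, 38.4, 27.1 and 13.8 CPM), and Scgb1c1, a secretoglobin of olfactory mucosa (26.9, 11.7, 13.3 and 11.1 CPM). The defining club cell genes Scgb1a1 and Scgb3a2 and the goblet cell gene Tff3 had 0 counts in all 12 libraries. Other secretory genes of the list were mixed. Scgb3a1 measured 0.675, 0.12, 0.429 and 0.136 CPM in the 4 libraries and up to 0.216 in the others. Pigr measured 1.82, 0.181, 0.161 and 0.136 CPM and up to 0.225 in the others, so both overlapped. Muc5ac had at most 0.241 CPM in any library. The genes that follow were higher in the 4 libraries. Agr2, a protein of the secretory pathway of goblet cells, measured 8.0, 3.31, 3.97 and 2.35 CPM there and had 0 counts in the other 8. Muc5b, a gel-forming mucin, measured 6.81, 2.23, 4.18 and 2.53 CPM and at most 0.7 elsewhere. Tff2, a secreted trefoil peptide, measured 1.40, 0.662, 1.07 and 0.542 CPM and at most 0.0618 elsewhere. Reg3g, a secreted antibacterial lectin, had 3.79 to 22.5 CPM in the 4 libraries and at most 0.148 elsewhere. Of the 8 tested genes of the list, 1, Muc5b, was called lower in C57BL/6 mutants than in wild type, beside 12.6% of all genes tested. That call was lost with only the groups compared and without wild type replicate 1 or 3 or mutant replicate 5 or 6 (-1.92 to -1.41, edgeR adjusted p = 0.0747 to 0.178). All 8 were called lower in BALB/c than in C57BL/6 wild type, beside 25.6%. The nasal and serous gland list (16 of 19 genes in the table) did not separate the libraries, at 39.4 to 95.0 CPM in the 4 and 23.1 to 122 in the 8. Its sum was mostly Ltf, the iron-binding protein lactoferrin, which neutrophils also carry, at 17.1 to 115 CPM over the 12 libraries. The odorant-binding and lipocalin genes Obp1a, Lcn3, Lcn11 and Lcn14 had 0 counts in all 12 libraries. Aqp5, a water channel of gland cells, had 2.71 to 7.79 CPM in the 4 libraries and at most 0.719 in the others.

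**Figure D5:**
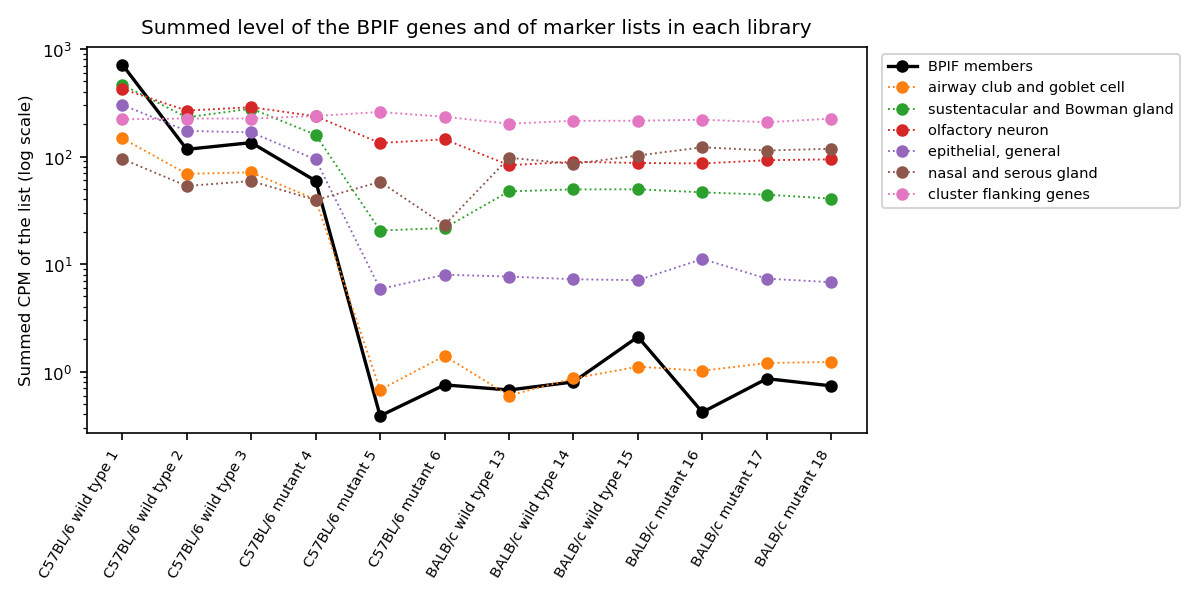
Summed CPM (log scale) of the 8 BPIF genes (black) and of 6 gene lists in each of the 12 libraries; lines only guide the eye. The BPIF sum drops from 59.3 CPM or more in the first 4 libraries to 2.11 or less in the other 8; the epithelial, sustentacular and club cell lists are also higher in the first 4, while the genes that flank the cluster stay between 202 and 259.5 CPM.

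The other genes of the wider family were near 0 or, for Lbp and Pltp, present in every library. Inside the cluster, Bpifa2, Bpifa3, Bpifa5, Bpifa6 and Bpifb2 had at most 0.120 CPM in any library, and Bpifa3 and Bpifa6 had 0 counts in all 12. Bpifa5, whose upstream window resembles that of Bpifa1, had 4, 2 and 2 counts in the C57BL/6 wild type libraries and 0 elsewhere. Bpifc on chromosome 10 and Bpi, the neutrophil protein that names the fold, had at most 0.361 CPM. Lbp, the serum lipopolysaccharide-binding protein, and Pltp, the phospholipid transfer protein, were measured in every library, at 14.5 to 31.6 and 46.1 to 87.9 CPM.

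Lbp and Pltp did not follow the BPIF pattern. Lbp was higher in BALB/c than in C57BL/6 by 0.70 on the log2 scale in wild type (SE 0.166, edgeR adjusted p = 0.00492) and by 0.61 in mutants (SE 0.165, edgeR adjusted p = 0.0126, or 0.52 and 0.0522 without BALB/c mutant replicate 16). Pltp was higher in BALB/c than in C57BL/6 by 0.61 in wild type (SE 0.0986, edgeR adjusted p = 0.000468), and between mutants the difference was -0.1 (SE 0.0977, edgeR adjusted p = 0.45). Between genotypes, Pltp was higher in C57BL/6 mutants than in wild type by 0.45 (SE 0.0983, edgeR adjusted p = 0.00842, or 0.45 and 0.07 when only those 2 groups were fitted). In BALB/c its difference was -0.26 (SE 0.0979, edgeR adjusted p = 0.327). The test of the difference between these 2 genotype effects gave -0.71 (SE 0.139, edgeR adjusted p = 0.0116).

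Genes on either side of the cluster had a similar summed level in all libraries, and most of that sum was Mapre1. The 8 flanking genes analysed summed to 222 to 238 CPM in the 4 libraries with BPIF transcripts and 202 to 259.5 in the other 8. Necab3, at low levels, was higher in those 4 libraries, at 3.64, 2.17, 2.68 and 2.03 CPM against 0.922 to 1.92 in the other 8. Of the 6 tested, 0 were called higher and 1, Necab3, lower in C57BL/6 mutants (12.6% of all genes tested were called lower), with a median log2 difference of -0.01 beside 0.0 over all genes tested. In BALB/c against C57BL/6, 2 of the 6, Cbfa2t2 and Necab3, were called lower in wild type (25.6%) and 2, Cbfa2t2 and Cdk5rap1, in mutants (18.9%), and 0 were called higher in either. The Necab3 call in mutants was lost with no filter, with only the groups compared, and without wild type replicate 1 or 3 or mutant replicate 5 or 6 (-1.0 to -0.72, edgeR adjusted p = 0.0527 to 0.167). Between wild types it was lost without C57BL/6 replicate 1 or BALB/c replicate 13 or 15 (-0.95 to -0.74, edgeR adjusted p = 0.0615 to 0.0924). Between mutants, the calls of Cbfa2t2 and Cdk5rap1 were lost with total counts (-0.14 and -0.35), and that of Cdk5rap1 also without C57BL/6 replicate 5 or BALB/c replicate 17 (-0.32 and -0.43). The most abundant of them, Mapre1, which binds microtubule ends, ranged from 123 to 164 CPM.

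Genes that BPIF proteins act on or beside were at low levels in every library. The sodium channel and lipopolysaccharide receptor list (Scnn1a, Scnn1b, Scnn1g, Cd14, Tlr4 and Ly96) summed to 22.9 to 30.7 CPM in the 4 libraries and 22.1 to 27.2 in the others. Scnn1a, the pore-forming alpha subunit of the channel that Bpifa1 limits, measured 8.16, 5.72 and 5.09 CPM in C57BL/6 wild type and 3.30, 0.922 and 1.13 in C57BL/6 mutant libraries, and 1.38 to 1.92 in BALB/c. It was lower in C57BL/6 mutants (log2 difference -1.82, SE 0.401, edgeR adjusted p = 0.00895, or 0.0684 with only the groups compared). Tlr4, the receptor of the lipopolysaccharide complex, was higher there (0.47, SE 0.129, edgeR adjusted p = 0.0219). That call was lost without wild type replicate 1 or 3, without mutant replicate 5 or 6, with total counts (0.28, edgeR adjusted p = 0.125) and with only the groups compared (edgeR adjusted p = 0.0769). These were the 2 calls among the 5 tested genes of the list, whose median was -0.2, beside 1835 of 16190 genes called higher and 12.6% called lower. Between wild types, 4 of the 5 were called. Scnn1a (-1.99, SE 0.408, edgeR adjusted p = 0.00211) and Scnn1b (-2.71, SE 0.803, edgeR adjusted p = 0.0151) were lower in BALB/c, as were 25.6% of all genes tested. Scnn1b measured 0.727, 0.361 and 0.643 CPM in C57BL/6 wild type. In BALB/c wild type it measured 0.0751, 0.0618 and 0.117, all under the floor, so the size of its difference is not well measured. Cd14 (0.56, SE 0.2, edgeR adjusted p = 0.0351) and Ly96 (0.62, SE 0.199, edgeR adjusted p = 0.0228) were higher, as were 3698 of 16190 genes. The call of Scnn1b was lost without C57BL/6 wild type replicate 1 or BALB/c replicate 13 or 14 (-2.65 to -2.51, edgeR adjusted p = 0.0508 to 0.057). Those of Cd14 and Ly96 were lost with total counts (0.43 and 0.5) and without C57BL/6 replicate 2 or 3, that of Cd14 also without BALB/c replicate 14 or 15 and that of Ly96 without replicate 13 (0.44 to 0.6, edgeR adjusted p = 0.0595 to 0.122).

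The profiles nearest to the summed BPIF level over the 12 samples were those of Sp8, Inmt, Cldn3, Otx2 and Olfr1507. Likeness was the mean absolute difference of log2 CPM after each gene's own mean was removed, over 14624 genes, and it was 0.47, 0.52, 0.52, 0.54 and 0.55 for these 5. Sp8, a transcription factor, had 17.1, 6.86, 8.15 and 5.02 CPM in the 4 libraries and 0 in the other 8. The nearest gene was Sec14l3 for Bpifa1 (0.38), Sp8 for Bpifb3 (0.28), Lrp2 for Bpifb4 (0.68) and Dsc3, a desmosome gene, for Bpifb6 (0.50). Only genes that passed the filter on low counts could be named as nearest. Bpifb9a and Bpifb9b could therefore not be named, even for each other or for Bpifb5. Among the genes that could be, Bpifb5 was nearest to Bpifb9a and Bpifb9b (0.80 and 1.15). For Bpifb5 it was Ppp1r36 (0.87), less near than Bpifb9a at 0.80. The level of Ppp1r36 was 1.35 CPM in wild type replicate 1 and at most 0.643 elsewhere. Bpifb1 was nearest to Cpeb1 (0.28), which measured 1.75 to 10.7 CPM. All points of these profiles share the same libraries.

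The counts of calls that follow restate the levels by which the members were chosen, and nothing about the members is read from them. With the BALB/c groups fitted alone, 1 of the 8 members, Bpifb1, passed the filter on low counts, so the other 5 tested members entered through their C57BL/6 levels. In the fit over all 12 samples and 16190 genes, 2 of the 6 members that could be tested, Bpifb5 and Bpifb6, were called lower in C57BL/6 mutants than in wild type (adjusted p under 0.05), where 12.6% of all genes tested were called lower. The members' log2 differences had a median of -3.55 beside 0.0 over all genes tested. The count rests on single libraries, and calls over all genes in either direction moved too. It was 6 of 6 without mutant replicate 4 (4833 of 16500 genes) and 1 without wild type replicate 2 (3301 of 16470). It was 0 without wild type replicate 1 (2184 of 16377), mutant replicate 5 (2285 of 16508) or mutant replicate 6 (1724 of 16496). The C57BL/6 wild type libraries lay wholly above the mutant ones for 5 of the 8 members and 4 of the 6 tested, against 21.9% of all genes tested. For 2 of the 5 this rests on values near the floor: the lowest wild type and highest mutant libraries had 12 and 12 counts of Bpifb5 (0.322 and 0.271 CPM) and 6 and 4 counts of Bpifb9b (0.161 and 0.097 CPM).

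Between strains, 5 of the 6 tested members were called lower in BALB/c wild type than in C57BL/6 wild type, all but Bpifb1, where 25.6% of all genes tested were called lower. C57BL/6 wild type libraries lay wholly above BALB/c wild type ones for 6 of the 8 members and 5 of the 6 tested, against 30.1% of all genes tested. For 2 of the 6 this rests on values near the floor: 12 against 10 counts of Bpifb5 (0.322 and 0.293 CPM) and 6 against 0 counts of Bpifb9b, whose 0.161 CPM lies under the floor of 0.225. Limma-voom called 1 of the 6 in this comparison, Bpifb3, beside 7815 of 16190 genes in either direction. In edgeR, leaving out 1 library at a time left 4 or 5 member calls and 6567 to 7319 calls over all genes. Bpifb5 was lost without C57BL/6 wild type replicate 1, and Bpifb3 without replicate 3 of that group or without any 1 BALB/c wild type library. Among mutants, 1 of the 6, Bpifa1, was called lower in BALB/c, where 18.9% of all genes tested were. The C57BL/6 side of that call is mutant replicate 4. Without that library 0 were called, as without any 1 BALB/c mutant library, and 3 were called without C57BL/6 mutant replicate 5 or 6. These fits called 4500 to 5374 genes in either direction. For 0 of the 8 members did all C57BL/6 mutant libraries lie above all BALB/c mutant ones (24.8% of all genes tested). The wild type comparison uses the same C57BL/6 wild type libraries as the comparison of genotypes in that strain.

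Within BALB/c, 0 of the 6 tested members were called between mutant and wild type by edgeR, where 0.136% of all genes tested were called, and 0 had an unadjusted p under 0.05. DESeq2 called 1, Bpifa1, from a single library with 2 counts against 0 in all other BALB/c libraries, beside 323 of 16190 genes. Limma-voom called 0, beside 44 genes. The best measured member here, Bpifb1, was at 0.717 CPM ± 0.242 (SD, n = 3) in wild type and 0.373 ± 0.0902 (SD, n = 3) in mutants. Its log2 difference was -0.93 (SE 0.561, edgeR adjusted p = 0.579), and its 2 groups did not overlap, as for 10% of all genes tested. For the other members both BALB/c groups were at or near the floor, so a genotype difference was not detectable at this depth. The test of a difference between the genotype effects of the 2 strains called 0 of the 6 by edgeR (10% of all genes tested), with 1 at an unadjusted p under 0.05. DESeq2 called 1, Bpifa1, beside 2707 of 16190 genes. Without C57BL/6 wild type replicate 3, edgeR called 1, Bpifb5, beside 1862 of 16447 genes. As the BALB/c side of this difference is at or near the floor for all tested members but Bpifb1, these counts do not show whether the effects differ.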

How the data were processed

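mRNA was sequenced from 12 samples, 3 in each of 4 groups. The submitters' processing notes name bcl2fastq, TopHat2 2.0.6, HTSeq, DESeq2 and the build mm10, with no role or order; strand setting and multi-mapping are not given in the sources used here. The authors deposited raw counts per gene (23358 rows, all counts even), RPKM values and coding lengths, and a table of log2 fold changes with p-values and q-values whose headers name DESeq2. RPKM values and the authors' fold changes were not used for results. Of the columns, 0 belonged to no sample.

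The deposited counts entered edgeR 4.0.16 (R 4.3.3): filterByExpr (minimum count 10, minimum total 15) left 16190 genes, TMM scaling, and 1 quasi-likelihood model of 4 group means over all 12 samples. Benjamini-Hochberg adjustment ran over all genes tested, with 0.05 as the threshold for a call. Standard errors are those implied by the F statistic. Library totals were 27.2 to 46.5 M counts, and CPM used these totals scaled by TMM. The script was tested on simulated data. Alternatives were DESeq2 1.42.0, limma-voom (limma 3.58.1), RLE factors, total counts, no filter, only the groups compared, leaving out each library, and, added after seeing the data, halved counts. Upstream windows came from RefSeq (GRCm38.p6) and transcripts from GENCODE (GRCm38).

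Members, gene lists and naming rule were chosen with earlier results of these data known. Named were all members, the other BPI/LBP family genes, up to 4 of the most abundant genes of each list and the nearest profiles. Genes at 0, Ddx3y, Cdk5rap1, Necab3, Scnn1b, Agr2, Muc5b, Tff2, Muc5ac, Scgb3a1, Pigr and the single-library genes were added after their values were seen. A further result is not reported here.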

Additional observations from a re-analysis of the deposited data

Results flagged for a closer look

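Between mutant and wild type, Pltp, the phospholipid transfer protein, differed by unlike amounts on the 2 strains. The test of the 2 differences against each other gave -0.71 on the log2 scale (BALB/c minus C57BL/6, SE 0.139, edgeR adjusted p = 0.0116). Its level was higher in C57BL/6 mutants by 0.45 (edgeR adjusted p = 0.00842, or 0.07 with only the groups compared). The BALB/c difference was -0.26 (edgeR adjusted p = 0.327). The osteoblast list moved the same way. Its median log2 difference was 0.6 in C57BL/6 mutants (8 of 10 genes called higher, beside 1835 of 16190) and -0.05 in BALB/c. For the difference between these effects it was -0.62 (4 of 10 called lower, beside 742 of 16190). Other lists moved the other way there: 5 of 6 erythroid and 5 of 8 skeletal muscle genes were called higher, beside 884 of 16190 (medians 2.73 and 7.42). The skeletal muscle sum ran from 16.6 to 434 CPM within BALB/c mutants. The parts of bone cells, nasal mucosa and sex in the Pltp difference were not tested. The strains were run on different flow cells.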

How the results depend on the processing

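No paired analysis was possible because the groups share no replicate numbers. Of the 6 tested members, 2 were called in C57BL/6 mutants against wild type, beside 3867 of 16190 genes in all. DESeq2, which gave Bpifb5 no adjusted p, called 0 members and 4472 of 16190 genes. With only the groups compared, 0 members and 1458 of 15828 genes were called. Limma-voom also called 2 (4705 of 16190 genes), but these were Bpifa1 and Bpifb3. Halved counts, chosen after seeing the data, called 3 of the 5 that could be tested, Bpifa1, Bpifb4 and Bpifb6 (4129 of 15168 genes). Leaving out 1 library gave 0 to 6 members and 1724 to 4833 genes. For BALB/c mutants against wild type, DESeq2 called 1 member and 323 genes, limma-voom 44 genes, total counts 4 and only the groups compared 71, against 0 members and 22 genes; leaving out 1 library gave 0 members and 0 to 95 genes. Between wild types 5 members were called beside 7847 of 16190 genes, and 1 (Bpifb3) by limma-voom beside 7815. With 1 library left out it was 4 to 5 (6567 to 7319 genes). Between mutants 1 was called (5968 of 16190 genes), 2 by DESeq2 (6344) and 0 by limma-voom (5896). Without the filter it was 3 (5671 of 20416 genes). With only the groups compared it was 0 of the 1 that could be tested (5944 of 15364 genes). Leaving out 1 library gave 0 to 3 (4500 to 5374 genes). The interaction gave 0 members, 1 with DESeq2 (2707 genes against 1626), and 0 to 1 with 1 library left out (624 to 3129 genes). The cause of these shifts was not tested, beyond the fewer samples or genes in some fits. No member difference called by edgeR over all 12 samples turned its direction under the settings run; that of Bpifb4 between mutants, not called there, ran from -9.3 to 0.89 with 1 library left out. In BALB/c, all members but Bpifb1 had too few reads to resolve a genotype difference.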
